A study of Mus musculus with 6 samples.

Results

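Germ cells of the testis use many exons that other tissues skip, and a small group of RNA-binding proteins is known to set that choice. The 10 genes described here encode such regulators: the pyrimidine tract binding proteins Ptbp1, Ptbp2 and Ptbp3, the X-linked Rbmx and its testis copy Rbmxl2, the KH-domain proteins Khdrbs1, Khdrbs2 and Khdrbs3, the RNA-binding protein Rbm5 and the RNA helicase Ddx5. They were chosen by gene symbol from the 54532 genes of the deposited table, and all 10 were found, each in a single row. Messenger RNA was sequenced from suspensions of STRA8+ germ cells of mouse testis, STRA8 being a protein that germ cells make when retinoic acid brings them into meiosis. The 3 control libraries have the genotype Cre and the 3 others the genotype knockout. The labels name neither the deleted gene nor the promoter of the Cre, and they give no strain, age or number of animals. By its title, the study is about BCAS2 and hnRNPH1 in splicing during meiosis, and the labels carry the words conditional knockout as the treatment of both groups. The comparison described here asks how the transcript levels of the splicing regulators differed between knockout and control cells.

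PTBP proteins bind pyrimidine-rich RNA and mostly block the use of nearby exons. PTBP1 is made in most dividing cells, and PTBP2 takes its place in neurons and in male germ cells during meiosis. RBMXL2 and the KHDRBS3 protein, also called T-STAR, are likewise testis-enriched relatives of the widely made RBMX and KHDRBS1, which is also called SAM68. RBM5 and DDX5 act more broadly in splicing, and RBM5 is needed for spermatids to mature in mice.

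Levels are given as deposited, in FPKM, a count of fragments divided by gene length and by a measure of library size. The gene length used was 15434 bases for Rbm5, whose longest coding transcript has 3205, but 1472 bases for both in Rbmxl2. Levels, shares and orders compared between genes therefore depend on the lengths used, while the ratio of a gene's FPKM between groups does not. The libraries held 14532453 to 16963019 recovered reads. Bcas2, of the PRP19 splicing complex, read 19.8, 19.3 and 20.5 FPKM in control libraries and 4.78, 4.38 and 5.40 FPKM in knockout libraries. For Hnrnph1 the control values were 61.2, 67.5 and 62.7 FPKM and the knockout values 128.8, 155.8 and 135.7 FPKM. Stra8, the gene that names the cells, read 11.5, 22.6 and 17.0 FPKM in control libraries and 125.4, 136.8 and 136.2 FPKM in knockout libraries. Markers of cell types differed strongly between the groups, and the controls, labelled as STRA8+ cells, held much spermatid message. All 8 spermatid markers were lower in the knockout, with a summed level of 17500 to 20390 FPKM in the controls and 1.55 to 5.55 FPKM in the knockout, and so were all 8 markers of pachytene cells, with sums of 5006 to 6026 and 41.1 to 59.6 FPKM. Of the 8 spermatogonial markers 7 were higher and 1 lower, with sums of 69.5 to 114.7 and 535.9 to 647.7 FPKM, and of the 8 early prophase markers 5 were higher and 1 lower, with sums of 358.9 to 429.5 and 412.2 to 582.2 FPKM. All 8 Sertoli cell markers were higher, with sums of 86.4 to 206.7 and 392.4 to 722.9 FPKM. Macrophage markers summed to 51.2 to 88.6 and 82.0 to 270.4 FPKM (3 of 6 higher), Leydig markers to 84.9 to 140.5 and 14.2 to 66.2 FPKM (1 of 5 higher and 3 lower) and peritubular markers to 166.2 to 207.3 and 20.3 to 38.5 FPKM (1 of 5 lower). Endothelial markers summed to 1.70 to 3.45 FPKM and erythroid markers to 4.39 to 21.2 FPKM over the 6 libraries, and no marker of any list was at 0 in all knockout libraries. These sums are as deposited. With FPKM rescaled to the same sum in every library, Leydig sums overlapped (controls 168.1 to 312.6, knockout 69.2 to 322.7). Early prophase sums came apart (776.3 to 955.5 and 2009 to 2759), as did macrophage sums (101.5 to 197 and 388.7 to 1318). Endothelial sums changed from lower to higher in the knockout. Spermatid, pachytene and peritubular sums stayed lower and spermatogonial and Sertoli sums higher, without overlap. The marker shifts move with every result below, and their part in the results was not tested. In bulk RNA, fewer cells of a type and less RNA per cell cannot be told apart.

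**Figure D1:**
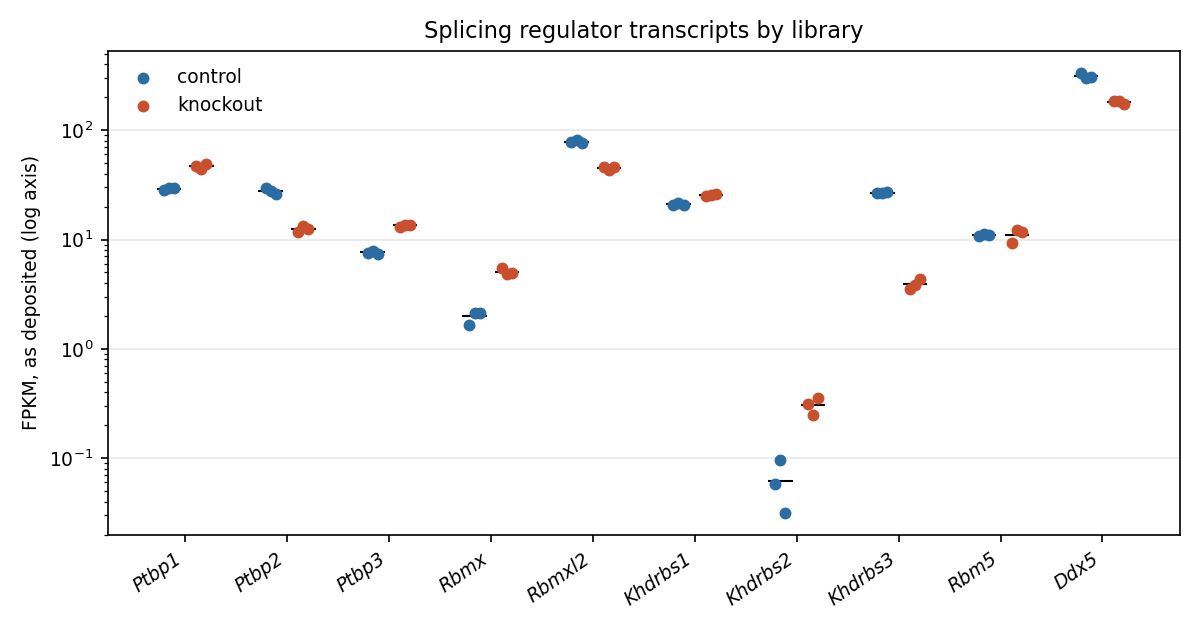
Level of each of the 10 splicing regulators in each library, in FPKM as deposited on a log axis. Points are libraries, in blue for control and red for knockout, and bars are group means (n = 3). The groups overlap for Rbm5 and for no other gene, and the widest gap between means on this axis is that of Khdrbs3, from 26.8 to 3.88 FPKM.

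As deposited, the members split by direction within each family. Of the 9 that reached a mean of 1 FPKM and were tested, Ptbp1, Ptbp3, Rbmx and Khdrbs1 were higher in the knockout, Ptbp2, Rbmxl2, Khdrbs3 and Ddx5 were lower, and Rbm5 was not called. A call is an adjusted p under 0.05 from limma, a linear model fitted across all genes, with Benjamini-Hochberg adjustment. Calls were the rule in these data: 86.6% of the 16791 genes tested were called, 36.2% higher and 50.4% lower, so 4 of 9 in each direction is near the background and the count by itself says little about the members. The groups did not overlap for 8 of these 9, nor for 88% of all genes tested, 36.9% with the knockout above and 51.1% with it below. Over the 9 members the median log2 fold change was 0.01, and over all genes tested it was -0.41. Fold changes are knockout minus control on the scale log2(FPKM + 0.5), where the change of a low gene comes out too small.

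The direction of some calls rests on how libraries were scaled. The deposited values were divided by 0.691 to 0.774 times the recovered reads in the controls and by 1.37 to 1.42 times in the knockout, which lowers knockout values against shares of reads. Over all genes tested the median log2 fold change went from -0.41 to 0.42 with reads rescaled to 1000000 per library, to 0.53 after quantile normalization and to 0.71 with FPKM rescaled to sum to 1000000. With reads rescaled, 89.4% of all genes were called, 50.6% higher and 38.9% lower, and 5 members were higher and 2 lower. After quantile normalization 88.9% were called, 52.1% higher and 36.8% lower, and 7 members were higher and 2 lower. With FPKM rescaled 90.5% were called, 54.2% higher and 36.2% lower, and 7 members were higher and 1 lower. Ptbp1, Ptbp3, Rbmx and Khdrbs1 were higher and Khdrbs3 was lower under all 4 scalings, as were 36.2% and 34.2% of all genes tested in these directions. Rbmxl2 and Ddx5, called lower as deposited, were called higher with FPKM rescaled (limma adjusted p of 0.0032 and 0.00062) and after quantile normalization (0.00015 and 2.1e-05). With reads rescaled neither was called (0.211 and 0.098). Ptbp2 was lower under 3 scalings and at a log2 fold change of 0.041 with FPKM rescaled to sum to 1000000. Rbm5 was higher under each of the other 3.

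**Figure D2:**
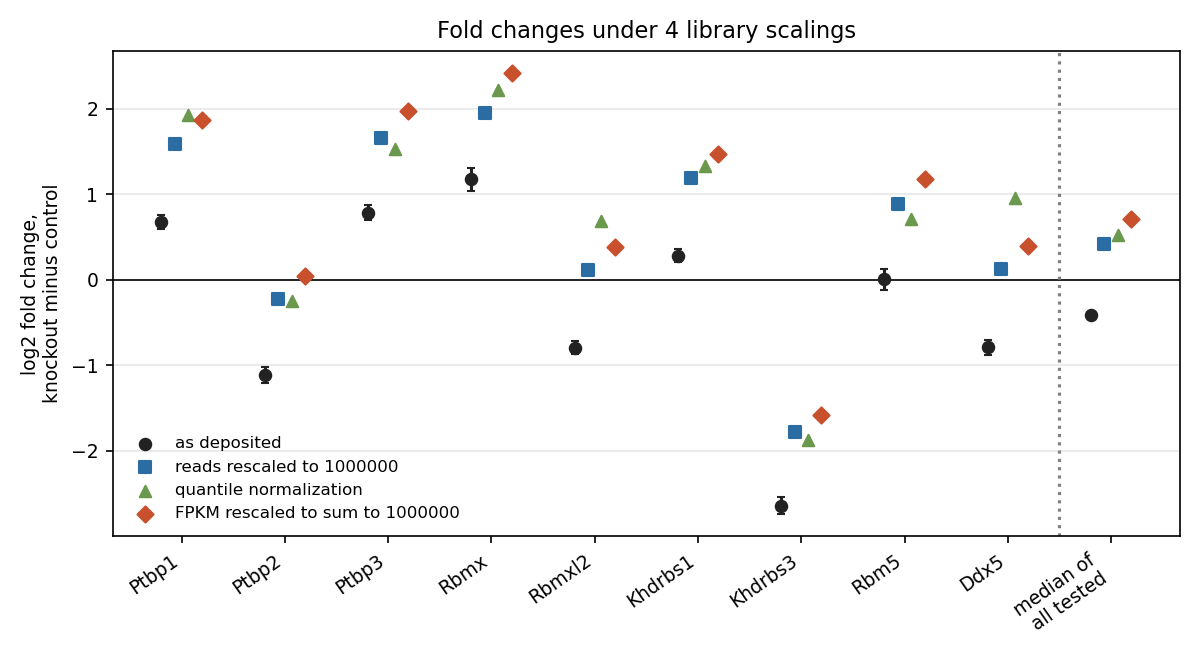
Log2 fold change, knockout minus control, of the 9 members tested and, at the right, the median of all genes tested, under 4 scalings of the libraries. Bars on the black points are standard errors of the deposited scaling. Ptbp1, Ptbp3, Rbmx and Khdrbs1 lie above 0 and Khdrbs3 lies below 0 under each scaling, while Rbmxl2 and Ddx5 change sign.

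Among the PTBP genes, the widely made Ptbp1 and Ptbp3 rose and the germ cell and neuronal Ptbp2 fell as deposited. PTBP1 is known to limit PTBP2 through a short exon: when it is skipped, the reading frame shifts and the message is open to decay. PTBP1 limits its own message through the matching exon. In the GENCODE M21 annotation that exon was exon 10 of a Ptbp1 coding transcript, at chr10:79862014-79862047 on the plus strand, and exon 10 of a Ptbp2 coding transcript, at chr3:119724612-119724645 on the minus strand, in GRCm38 (mm10). It was 34 bases long in both genes, 1 base more than a whole number of codons. Both exons are shown because they are the point where these genes are known to meet, with capitals at the 8 of 34 places where they differ.
Ptbp1 exon 10: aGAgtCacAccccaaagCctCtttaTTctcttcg
Ptbp2 exon 10: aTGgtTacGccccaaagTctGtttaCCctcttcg
The exon was absent from 2 spanning Ptbp1 transcripts, both annotated as targets of nonsense-mediated decay, and from 3 spanning Ptbp2 transcripts, of which 2 were so annotated. The deposited values cover whole genes and do not show how often the exon was used.

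Ptbp1 (ENSMUSG00000006498, chromosome 10, 79854427 to 79864771) read 28.6, 29.3 and 29.4 FPKM in control libraries and 46.8, 44.1 and 49.6 FPKM in knockout libraries. Each knockout library lay above each control, and the mean went from 29.1 ± 0.430 to 46.9 ± 2.73 FPKM (SD, n = 3 each), 1.61 times higher. Its log2 fold change of 0.68 ± 0.0822 (SE) had a limma adjusted p of 9.4e-05. The log2 fold change became 1.86 once FPKM were rescaled to sum to 1000000. Of the 50-base stretches of its transcript 30.6% also occur in other annotated genes, so a part of the Ptbp1 reads could have been split between genes. Matches on either strand were counted, and whether strand was used in counting reads is not given in the sources used here. The largest share, 11.2%, is with Gm17134, at 0 FPKM in both groups. E130317F20Rik shares 8.04% and went from 5.19 to 1.44 FPKM. Plppr3 shares 3.3% and went from 0.747 to 5.31 FPKM. These genes overlap Ptbp1 on the other strand. The processed pseudogene Gm4900 shares 8.04% and went from 4.50 to 0.148 FPKM.

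Ptbp2 (ENSMUSG00000028134, chromosome 3, 119718742 to 119784466) went the other way. The control libraries read 29.9, 27.5 and 26.1 FPKM and the knockout libraries 11.8, 13.3 and 12.6 FPKM. The groups did not overlap, and the means were 27.8 ± 1.89 and 12.6 ± 0.712 FPKM (SD, n = 3 each). This gave a log2 fold change of -1.12 ± 0.0941 (SE) and a limma adjusted p of 1.0e-05. With FPKM rescaled to sum to 1000000 the groups overlapped, at 58.9 ± 2.38 and 60.7 ± 2.69, so the fall of Ptbp2 holds against the deposited scaling and not as a share of summed FPKM. No 50-base stretch of its longest coding transcript, of 3364 bases, occurs in another annotated gene, but the deposited gene length was 9175 bases. Its span also overlaps Gm43300, which went from 3.445 to 5.035 FPKM, and Gm42664, which went from 0.706 to 2.17 FPKM, both on the same strand. Whether reads were split between them was not tested.

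Ptbp3 (ENSMUSG00000028382, chromosome 4, 59471868 to 59549364), best known from blood cells, was the least abundant of the family in the controls. It read 7.60, 7.87 and 7.39 FPKM there against 13.1, 13.7 and 13.6 FPKM in knockout libraries, again without overlap. On the log2 scale the rise was 0.78 ± 0.0884 (SE), with a limma adjusted p of 5.8e-05. Rescaled FPKM gave a rise of 1.98 on that scale. In the knockout the ranges of Ptbp3 and Ptbp2 overlapped, with Ptbp3 the higher in each library by deposited FPKM. In the controls Ptbp2 was at 27.8 FPKM and Ptbp3 at 7.62 FPKM. The order in the knockout rests on deposited lengths of 7480 bases for Ptbp3 and 9175 for Ptbp2. Their longest coding transcripts have 6640 and 3364 bases, and the knockout reads summed to 6310 and 7203.

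The makeup of the family is not touched by a factor that multiplies all genes of a library. Ptbp1 took 43.3, 45.3 and 46.8% of the summed PTBP level in control libraries, against 65.2, 62.1 and 65.4% in knockout libraries. The share of Ptbp2 was 45.2, 42.5 and 41.5% in control libraries, against 16.5, 18.6 and 16.6% in knockout libraries. By deposited FPKM, control cells thus held Ptbp1 and Ptbp2 at like levels, and in knockout cells Ptbp1 was the main PTBP message. The likeness in the controls rests on the deposited gene lengths, 4740 bases for Ptbp1 and 9175 for Ptbp2. Their longest coding transcripts have 3110 and 3364 bases, and the control reads summed to 4905 and 9018. The summed level itself went from 64.6 ± 1.59 to 72.9 ± 2.55 FPKM as deposited (SD, n = 3 each).

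**Figure D3:**
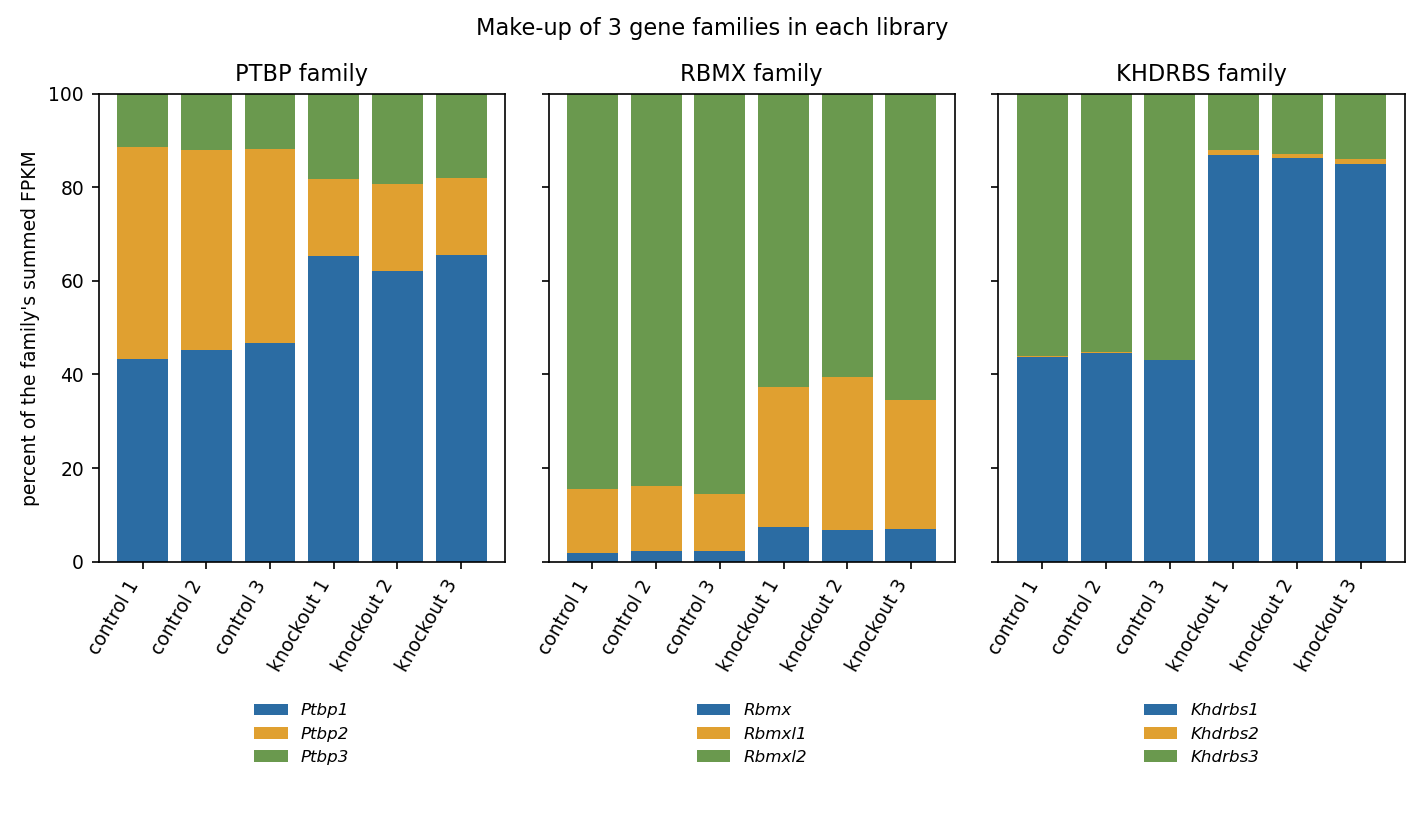
Percent of the summed FPKM of 3 gene families that each gene took in each library (stacked bars, controls at the left of each panel, knockout at the right). Ptbp2 goes from 43.1 to 17.2% of its family on average, Rbmxl2 from 84.6 to 62.9% and Khdrbs1 rises from 43.9 to 85.98% of its family.

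In the RBMX family the X-linked Rbmx rose while its testis copy Rbmxl2 was lower as deposited. RBMX, also called hnRNP G, binds RNA through a single recognition motif and acts in splicing and chromosome cohesion. Its gene lies on the X chromosome, which is silenced in pachytene spermatocytes. Rbmxl2 arose by copying of a spliced message, and its protein is needed for male meiosis in mice. A second such copy, Rbmxl1, lies on chromosome 8 and is no member of the 10. The first 150 coding bases of the 3 genes, from GENCODE M21 in GRCm38, are shown to make clear how far reads can be told apart, with capitals where a base differs from that of Rbmx.
Rbmx: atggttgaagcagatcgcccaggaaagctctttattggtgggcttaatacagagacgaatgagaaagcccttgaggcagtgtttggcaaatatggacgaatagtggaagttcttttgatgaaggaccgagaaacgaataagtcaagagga
Rbmxl1: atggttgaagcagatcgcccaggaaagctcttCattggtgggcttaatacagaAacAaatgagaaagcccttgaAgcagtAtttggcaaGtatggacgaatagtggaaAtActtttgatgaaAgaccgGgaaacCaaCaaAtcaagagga
Rbmxl2: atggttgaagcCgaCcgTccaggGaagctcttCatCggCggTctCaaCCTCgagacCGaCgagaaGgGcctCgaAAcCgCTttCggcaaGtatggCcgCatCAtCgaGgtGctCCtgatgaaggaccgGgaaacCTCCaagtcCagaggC
Rbmxl1 differed from Rbmx at 13 of these places and Rbmxl2 at 42. Over the whole coding sequence 90.9% of aligned bases were the same between Rbmx and Rbmxl1, and 68.1% between Rbmx and Rbmxl2. Of the 50-base stretches of the Rbmx transcript 1.46%, and of those of Rbmxl2 0.141%, occur in another annotated gene.

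Rbmx (ENSMUSG00000031134, chromosome X, 57383530 to 57393036) had low levels, with 1.66, 2.14 and 2.14 FPKM in control libraries and 5.45, 4.84 and 4.95 FPKM in knockout libraries. These rest on 72 to 122 reads per control library and 424 to 511 per knockout library. The groups did not overlap, and the mean was 2.57 times higher in knockout cells. Rbmx had a log2 fold change of 1.18 ± 0.135 (SE), with a limma adjusted p of 6.7e-05. Rescaled FPKM gave a log2 fold change of 2.42.

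Rbmxl2 (ENSMUSG00000073894, chromosome 7, 107209445 to 107210916), a gene of a single exon, was the second most abundant member in the controls. Control libraries held 78.4, 80.8 and 76.6 FPKM and knockout libraries 46.2, 43.2 and 45.96 FPKM, without overlap. Its log2 fold change was -0.79 ± 0.0778 (SE), with a limma adjusted p of 2.5e-05, and 0.39 with FPKM rescaled to sum to 1000000. Its level lay above that of 92.9% of the genes tested in the controls and of 96.3% in the knockout.

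Within the family, counting Rbmxl1, Rbmxl2 took 84.4, 83.9 and 85.4% of the summed level in control libraries, against 62.7, 60.6 and 65.4% in knockout libraries. Rbmxl2 thus remained the main message of the family in every library. Rbmxl1 took 13.8, 13.9 and 12.2%, against 29.9, 32.6 and 27.5%, and Rbmx went from 2.13 ± 0.312 to 7.08 ± 0.308% (SD, n = 3 each). Rbmxl1 itself went from 12.4 ± 1.30 to 21.5 ± 2.02 FPKM (SD, n = 3 each), with a limma adjusted p of 0.00033.

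The KHDRBS genes encode signal-responsive RNA-binding proteins of the STAR family that bind AU-rich RNA. Here the widely made Khdrbs1 rose slightly and the testis and brain gene Khdrbs3 had the largest fall of all members. KHDRBS1 is needed for male fertility in mice. Khdrbs2, a gene mainly of the brain, was close to the limit of detection.

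Khdrbs3 (ENSMUSG00000022332, chromosome 15, 68928420 to 69101211) read 26.55, 26.6 and 27.1 FPKM in control libraries and 3.53, 3.81 and 4.31 FPKM in knockout libraries. Every knockout library lay far below every control, and the mean was 6.89 times lower. On the log2 scale it changed by -2.64 ± 0.101 (SE), with a limma adjusted p of 9.0e-08, and -1.58 with FPKM rescaled to sum to 1000000. Even so, 23.7% of all genes tested had a lower log2 fold change, so a fall of this size was common in these libraries.

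Khdrbs1 (ENSMUSG00000028790, chromosome 4, 129703164 to 129742303) read 20.8, 21.6 and 20.5 FPKM in control libraries and 25.2, 25.4 and 26.4 FPKM in knockout libraries. The groups did not overlap, but the rise was the smallest of the 4, 1.22 times. Its log2 fold change of 0.28 ± 0.0795 (SE) came with a limma adjusted p of 0.0099, and 1.47 with FPKM rescaled to sum to 1000000.

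Khdrbs2 (ENSMUSG00000026058, chromosome 1, 32172714 to 32658568) did not reach the mean of 1 FPKM and was not among the genes tested. Control libraries held 0.0581, 0.0962 and 0.0315 FPKM, from 6, 13 and 4 reads. Knockout libraries held 0.310, 0.250 and 0.357 FPKM, from 69, 52 and 76 reads, and lay above every control. When all genes with any value were fitted, limma gave a log2 fold change of 0.52 with an adjusted p of 0.0047. In that fit 8057 of 37309 genes were called higher and 12226 lower. Khdrbs2 contains Gm5415, a gene on the other strand that went from 11.3 to 0.0221 FPKM, and whether strand was used in counting is not given in the sources used here.

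Of the summed KHDRBS level Khdrbs3 took 55.1 to 56.8% in control libraries and 12.2 to 13.9% in knockout libraries. The share of Khdrbs1 went from 43.9 ± 0.773 to 85.98 ± 0.930% (SD, n = 3 each). Khdrbs3 led the family in every control and Khdrbs1 in every knockout library.

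Rbm5 and Ddx5 stand outside these families. RBM5 is part of early spliceosomal complexes and binds many transcripts of germ cells. Rbm5 (ENSMUSG00000032580, chromosome 9, 107740371 to 107770996) read 10.7, 11.3 and 10.9 FPKM in control libraries and 9.32, 12.3 and 11.7 FPKM in knockout libraries. The groups overlapped, with knockout replicate 1 below the controls and the other knockout libraries above them. For Rbm5 the log2 fold change was 0.01 ± 0.121 (SE), with a limma adjusted p of 0.962, and 1.18 with FPKM rescaled to sum to 1000000.

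DDX5, also called p68, unwinds RNA and works with splicing factors and transcription factors, and it maintains spermatogonia in mice. Ddx5 (ENSMUSG00000020719, chromosome 11, 106780355 to 106789185) was the most abundant member in both groups. Its control libraries read 335.7, 302.4 and 304.9 FPKM and its knockout libraries 184.2, 185.8 and 174.5 FPKM, without overlap. Ddx5 had a log2 fold change of -0.79 ± 0.0865 (SE), with a limma adjusted p of 4.9e-05, and 0.40 with FPKM rescaled to sum to 1000000. A processed pseudogene, Gm12183, holds 22.6% of the 50-base stretches of the Ddx5 transcript. It was at 10.7 and 6.38 FPKM, a small level beside that of Ddx5.

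The order of levels by deposited FPKM changed with the group, and it depends on the gene lengths used. Rbm5 was divided by 15434 bases, against 3205 in its longest coding transcript, and its level would be higher with the shorter length. From the top, the controls had Ddx5, Rbmxl2, Ptbp1, Ptbp2, Khdrbs3, Khdrbs1, Rbm5, Ptbp3, Rbmx and Khdrbs2. In that order the ranges of Ptbp1 and Ptbp2 and those of Ptbp2 and Khdrbs3 overlapped, and neither pair had the same order in all 3 libraries, while other neighbours were apart. The knockout had Ddx5, Ptbp1, Rbmxl2, Khdrbs1, Ptbp3, Ptbp2, Rbm5, Rbmx, Khdrbs3 and Khdrbs2. There the ranges of Ptbp1 and Rbmxl2, Ptbp3 and Ptbp2, and Ptbp2 and Rbm5 overlapped, although the first gene of each pair was the higher one within each of the 3 libraries. Ptbp1 went from above 81.8% of the genes tested in the controls to above 96.5% in the knockout, and Khdrbs3 from above 80.4% to above 49.8%.

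The ratio of related genes within a library was compared in 8 pairs, each with an exact two-sided permutation test. With 3 libraries against 3 this test cannot go below 0.10, so no pair could pass a threshold of 0.05. In 7 of the pairs the groups did not overlap and p was 0.10 (adjusted 0.114), the smallest the design allows. Groups did not overlap for 88% of all single genes tested either, so this count by itself says little about the pairs. No share was worked out for pairs of other genes. The ratio of Khdrbs3 to Khdrbs1 went from 1.28 ± 0.0416 to 0.151 ± 0.0117 (SD, n = 3 each), a change of -3.08 ± 0.0699 (SE) on the log2 scale. The ratio of Rbmxl2 to Rbmx was 40.3 ± 6.18 and 8.90 ± 0.402, a change of -2.17 ± 0.129 (SE), and that of Ptbp2 to Ptbp1 was 0.956 ± 0.0793 and 0.269 ± 0.0271, a change of -1.83 ± 0.107 (SE). In each of these pairs the testis-enriched relative lost ground to the widely made gene in 3 of 3 knockout libraries, and a factor per library cancels in these ratios.

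Ratios of the remaining pairs moved less or rest on few reads. Ptbp3 to Ptbp1 changed by 0.14 ± 0.0620 (SE) on the log2 scale, so these genes rose nearly in step. Rbm6, which is next to Rbm5 in the genome and related to it, went from 0.704 ± 0.0737 to 0.983 ± 0.0896 times the level of Rbm5 (SD, n = 3 each). Ddx17, the close relative of Ddx5, went from 0.137 ± 0.0121 to 0.282 ± 0.0156 times the level of Ddx5. The ratio of Khdrbs2 to Khdrbs1 changed by 2.14 ± 0.465 (SE), from 4 to 13 Khdrbs2 reads per control library. Rbm10 to Rbm5 had overlapping groups and an exact permutation p of 0.40, with a ratio of 0.779 in knockout replicate 1 against 0.439 and 0.552 in the others.

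**Figure D4:**
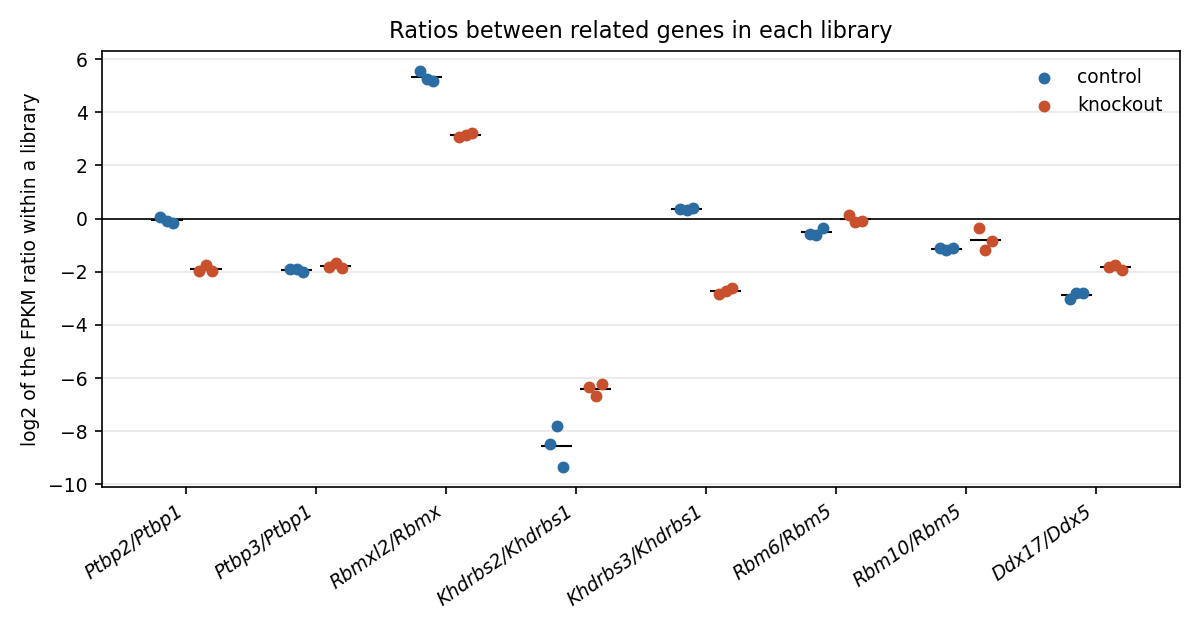
Log2 of the FPKM ratio between related genes within each library, for 8 pairs. Points are libraries, in blue for control and red for knockout, and bars are group means (n = 3). Rbmxl2/Rbmx, Ptbp2/Ptbp1 and Khdrbs3/Khdrbs1 are lower in every knockout library than in every control, and Rbm10/Rbm5 overlaps.

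The direction of the members' relatives and cofactors depended on the scaling. Of 10 such genes 9 were tested, and as deposited 4 were called higher, 3 lower and 2 neither way, against 36.2% higher and 50.4% lower of all genes tested. Under each of the other 3 scalings all 9 were called higher, against 50.6 to 54.2% of all genes. Among them Raver2, a corepressor that works with PTBP1, went from 0.669 ± 0.128 to 3.35 ± 0.418 FPKM (SD, n = 3 each), with a limma adjusted p of 1.9e-05. Raver2 was under 1 FPKM in the controls and passed the filter only through the knockout. Its relative Raver1 was at 0.00731 and 0.00475 FPKM and was not tested. Matr3, a nuclear matrix protein that works with PTBP proteins, went from 76.6 ± 5.64 to 50.9 ± 4.02 FPKM, with a limma adjusted p of 0.00060. Tra2b, a splicing activator that partners RBMX, went from 24.8 ± 0.412 to 17.1 ± 1.00 FPKM, and Qk, a STAR protein like the KHDRBS proteins, from 24.0 ± 0.792 to 18.4 ± 1.46 FPKM. Matr3, Tra2b and Qk were thus called lower as deposited and higher under the other 3 scalings, with log2 fold changes of 0.60, 0.65 and 0.80 with FPKM rescaled to sum to 1000000. Tra2a was at 20.3 ± 0.396 and 18.2 ± 3.62 FPKM and was not called as deposited, and neither was Rbm10, at 5.01 ± 0.0788 and 6.37 ± 0.943 FPKM.

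Rbm6 rose from 7.72 ± 0.774 to 10.8 ± 0.621 FPKM, with a limma adjusted p of 0.0041. Ddx17 rose from 42.9 ± 1.39 to 51.2 ± 4.49 FPKM, with a limma adjusted p of 0.033, and this call was lost without any of the controls and without knockout replicate 1 or 2, at adjusted p of 0.055 to 0.117. Where Ddx5 was lower as deposited, its relative Ddx17 was therefore not lower.

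Other regulators of alternative splicing, among them families known in brain, muscle and epithelium, had log2 fold changes from -4.45 to 2.40, against -2.64 to 1.18 for the members. Together with the relatives and cofactors, 40 genes were listed and 29 tested, of which 15 rose, 8 fell and 6 were not called. That is 51.7% higher and 27.6% lower, against 36.2% and 50.4% of all genes tested, and the median log2 fold change was 0.31 against -0.41. Under each of the other 3 scalings 24 rose and 5 fell. The filter used the mean of all 6 libraries. Raver2 and Mbnl3, among others, were under 1 FPKM in the controls, and Celf3, Celf5 and Rbm47, among others, in the knockout. Such genes passed only through the group where they were high, so their calls and the shares above lean on the filter. Since the list was drawn up with earlier results of these data known, the counts describe it and nothing more.

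On the scale log2(FPKM + 0.5) the largest rises among these regulators, leaving out the relatives and cofactors, were those of Rbm38, Esrp1 and Elavl2. Rbm38, an RNA-binding target of p53, went from 7.76 ± 2.05 to 42.3 ± 4.75 FPKM (SD, n = 3 each). Esrp1, the epithelial splicing regulator, went from 2.26 ± 0.404 to 11.6 ± 1.39 FPKM. Elavl2, an RNA-binding protein of neurons and germ cells, went from 1.84 ± 0.403 to 9.72 ± 2.15 FPKM. Their limma adjusted p were 6.7e-06, 3.6e-06 and 1.6e-05. The order depends on the value of 0.5 added to low levels: as a ratio of mean FPKM, Mbnl3, a muscleblind protein named here after its values were seen, rose 5.44 times, against 5.45 for Rbm38, 5.29 for Elavl2 and 5.11 for Esrp1.

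The largest falls on that scale were those of Celf3, Celf5 and Morf4l1. Celf3 and Celf5, which belong to a family that binds GU-rich RNA, went from 12.2 ± 0.623 to 0.0822 ± 0.0320 FPKM and from 6.74 ± 0.433 to 0.475 ± 0.0701 FPKM (SD, n = 3 each). Both were under 1 FPKM in the knockout and passed the filter only through the controls. Morf4l1, also called MRG15, a chromatin protein that acts in splicing in spermatids, went from 89.9 ± 13.8 to 12.4 ± 0.598 FPKM. Their limma adjusted p were 1.8e-08, 2.8e-07 and 2.1e-07, and each of the 3 was called lower under all 4 scalings. As a ratio of mean FPKM, Rbm47, also named after its values were seen, fell more than Morf4l1, 10.9 against 7.23 times, and with FPKM rescaled to sum to 1000000 its log2 fold change was -1.90 against -1.65.

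**Figure D5:**
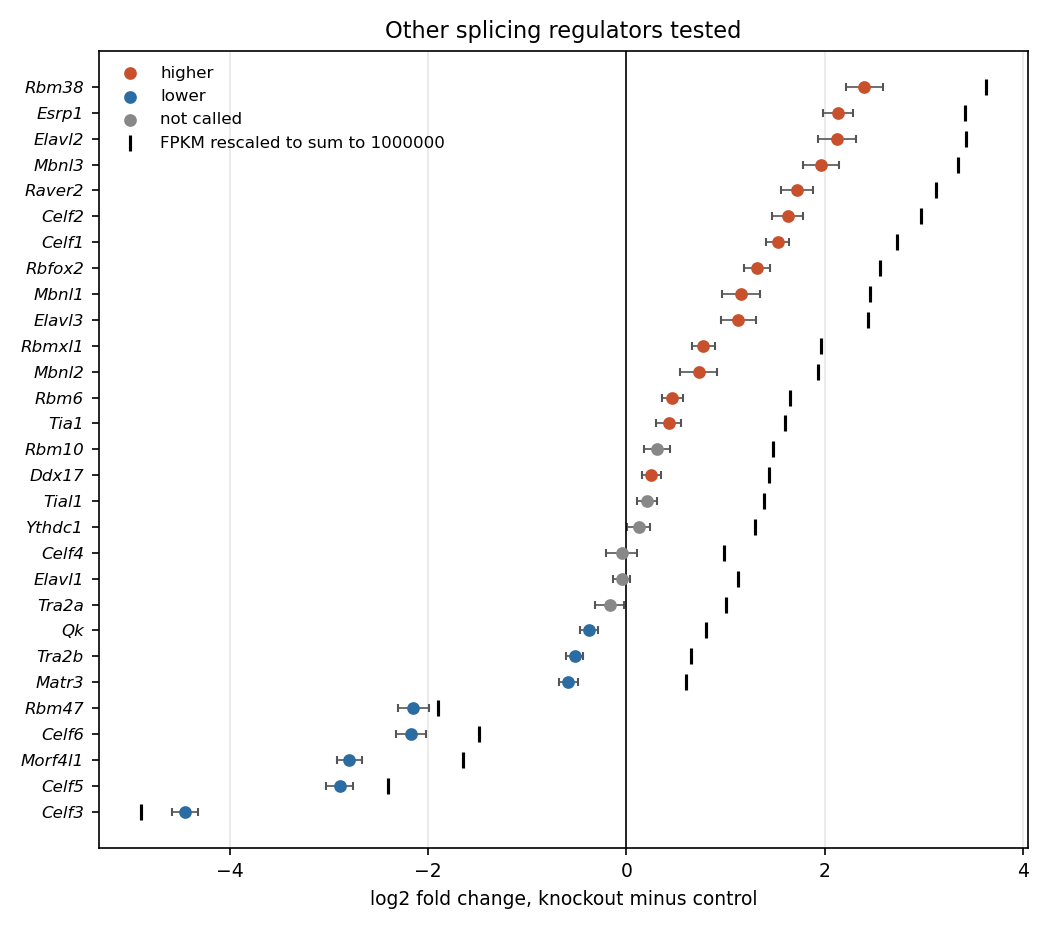
Log2 fold change, knockout minus control, of the 29 tested relatives, cofactors and other regulators of splicing, with standard errors. Colour gives the limma call on deposited values, and black ticks give the value with FPKM rescaled to sum to 1000000. The range runs from -4.45 for Celf3 to 2.40 for Rbm38 as deposited.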

How the data were processed

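Groups of the 6 libraries came from the sample titles. The submitters' processing notes name HISAT2 2.0.5 and the build mm10; which counter, annotation release and strand setting made the values is not given in the sources used here. The authors deposited FPKM values and gene lengths for 54532 genes. FPKM times length gave whole multiples of 1 read for 100% of nonzero values, within 0.01 read, which yielded the reads and library totals. The 16791 genes whose mean reached 1 FPKM were fitted on log2(FPKM + 0.5) with limma 3.58.1 (R 4.3.3), with a variance trend and Benjamini-Hochberg adjustment. Nothing in the labels says that libraries are separate animals, so a p-value here reflects library-to-library spread only, possibly technical. Ratios within a library used an exact permutation test. Coordinates are those of the deposited table and matched GENCODE M21, from which sequences and 50-base stretches of the longest coding transcript came, aligned with Biopython 1.88. On simulated data for knockout against control (16749 genes tested), the fit recovered 87.8% of genes changed by 1 on the log2 scale and 97.7% of those changed by 2. The simulation changed only a small part of the genes and took the deposited library divisors as correct. It therefore cannot speak to the choice of scaling or to data where most genes change. Members and lists were chosen with earlier results of these data known. The text names all members, their relatives and cofactors, and the 3 largest called rises and falls of the other regulators; Stra8, Mbnl3, Rbm47 and the overlapping genes and pseudogenes were added after their values were seen. Alternatives were other pseudocounts, filters and scalings, no trend, a replicate block, limma voom on the recovered reads and leaving out each library.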

Additional observations from a re-analysis of the deposited data

How the results depend on the processing

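Across the alternatives, the count of members higher moved from 4 to 7 with FPKM rescaled to sum to 1000000 and after quantile normalization, and the count lower moved from 4 to 1 with FPKM rescaled, 2 with reads rescaled to 1000000 and 2 after quantile normalization. For the other regulators these 3 scalings gave 24 higher and 5 lower, against 15 and 8, and a filter at a mean of 5 FPKM, which tests fewer genes, gave 8 and 5. That filter gave 3227 genes higher and 5320 lower among all genes tested, against 6075 and 8462. With FPKM rescaled, reads rescaled and quantile normalization in that order, log2 fold changes turned positive for Rbmxl2 (0.39, 0.12 and 0.68), Ddx5 (0.40, 0.13 and 0.96), Matr3 (0.60, 0.33 and 0.92), Tra2b (0.65, 0.38 and 0.41) and Qk (0.80, 0.52 and 0.58), and for Ptbp2 with FPKM rescaled alone (0.041). The cause was not tested. Leaving out each library in turn gave 4 members higher and 4 lower each time, 14 to 15 other regulators higher and 8 lower, and 5749 to 5934 genes higher and 8270 to 8373 lower. The 8 ratios kept their sign under the alternatives run for them; with a pseudocount of 0.5 the change of Khdrbs2 to Khdrbs1 went from 2.14 to 0.23. With the replicate number as a block, limma called 4 members higher and 4 lower, 5930 genes higher and 8364 lower, and Ddx17 was no longer called, at an adjusted p of 0.072. Same-numbered libraries did not deviate together (r of -0.12, -0.05 and -0.04 across genes), so the numbers were not taken as pairs. Limma voom on recovered reads gave 4 and 4 members. The ratio of recovered reads was not run, since length cancels in its change. Low reads limit Khdrbs2 and Rbmx.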
